A study of Mus musculus with 32 samples.

Results

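The genes described here are transcription regulators grouped as factors that blood progenitors may carry into the thymus, a label that these data did not set. They are the LIM-only adaptors Lmo2 and Lmo4, the basic helix-loop-helix factors Lyl1 and Tal1, the zinc-finger factors Gata2, Gfi1 and Gfi1b, the MADS-box factor Mef2c, and the homeobox factor Hhex. They were chosen by name, 9 genes in all, with earlier results of these data known. Of the 9, 8 had a row in each stage's table, which listed 19404 genes for E15.5 and 26244 for E19.5. Hhex is not analysed here.

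The libraries are bulk RNA-seq of embryonic thymus cells, sorted by flow cytometry from 5x polychromILC mice at E15.5 and E19.5. This reporter strain is common to all groups. Thymocytes labelled DN1, by name the earliest stage that lacks CD4 and CD8, were divided by reporters for BCL11b and ID2 into the gates BCL11b-ID2-, BCL11b+ID2-, BCL11b+ID2+ and BCL11b-ID2+, and at E19.5 also BCL11blowID2low. BCL11b is the factor that marks commitment to the T-cell lineage, and ID2 is an inhibitor of E proteins that is high in innate lymphoid cells. DN2 cells, the next thymocyte stage, were sorted at both stages. Each gate had 3 libraries, except DN2 at E15.5 with 2, which makes 14 libraries for the earlier stage and 18 for the later. Whether the libraries of a gate stem from different animals is not said in the labels, and the p-values therefore speak of library-to-library spread, which may be technical.

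As background, LMO2 binds no DNA of its own. It bridges a helix-loop-helix dimer, such as TAL1 or LYL1 with an E protein, to a GATA factor through the LIM-binding protein LDB1, and this complex runs gene programmes of blood stem and progenitor cells. Early thymocytes carry part of this programme and switch it off as they commit to the T-cell lineage, and forced expression of LMO2, LYL1 or TAL1 in thymocytes is a known route to T-cell leukaemia. LMO4 shares the LIM-only structure and also binds LDB1. GFI1 and GFI1B are repressors that recruit the histone demethylase LSD1, and MEF2C acts in lymphoid and myeloid progenitors.

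Values are the deposited DESeq2-normalised read counts, called normalised counts below, and the stages are given apart because each has its own table. Values of a gate's libraries are given in the order of their replicate numbers, which are 1, 2 and 3 at E15.5 and 1, 2 and 4 at E19.5. E15.5 libraries held 12030749 to 20709387 reads in genes, with 50.8% to 80.0% from mitochondrial ribosomal RNA. E19.5 libraries held 2599470 to 9498133 such reads, with 28.7% to 58.8%. Genes with a read numbered 8277 to 12954 in the E15.5 libraries and 14387 to 18879 in the E19.5 libraries. A single read was worth 0.560 to 1.64 normalised counts in the first table and 0.590 to 1.78 in the second. The gates were checked on the genes they were sorted for. At E19.5 Bcl11b was at 2.89 to 39.2 in the BCL11b-negative gates and at 409 or more in the BCL11b+ gates, and Id2 was at most 32.1 in the ID2-negative gates and at least 961 in the ID2+ gates. At E15.5 a pair of libraries ran against their gates: library 1 of BCL11b-ID2+ had 509 normalised counts of Bcl11b, and library 1 of BCL11b+ID2+ had 85.0 of Id2, below the 126 of library 1 of BCL11b-ID2-. The E15.5 columns carry numbers only, so the E15.5 groups rest on matching these numbers to barcode numbers in the sample descriptions. The staging genes also differed among the DN1 gates: at E19.5 Cd3e, a chain of the T-cell receptor complex, averaged 4395 in BCL11b+ID2- and 5744 in BCL11blowID2low against 115 in BCL11b-ID2-, and the DN2 marker Il2ra averaged 7825 in DN2 and 2307 in BCL11b+ID2+ but no more than 358 in the other 4 gates.

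At E19.5 each of the 8 measured genes differed among the 6 gates in limma's moderated F test, where 32.9% of the 13840 tested genes did so. The genes did not share one pattern. Lmo2, Gfi1b, Tal1, Mef2c and Lyl1 had their highest mean in the reporter-negative BCL11b-ID2- gate, where Lyl1 overlapped with DN2. Gata2 was read in both BCL11b-negative gates and in 1 other library. Gfi1 was lowest in BCL11b-ID2+, and Lmo4 was highest in BCL11b+ID2+. In bulk samples such as these, fewer cells that express a gene and less RNA per cell cannot be told apart.

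**Figure D1:**
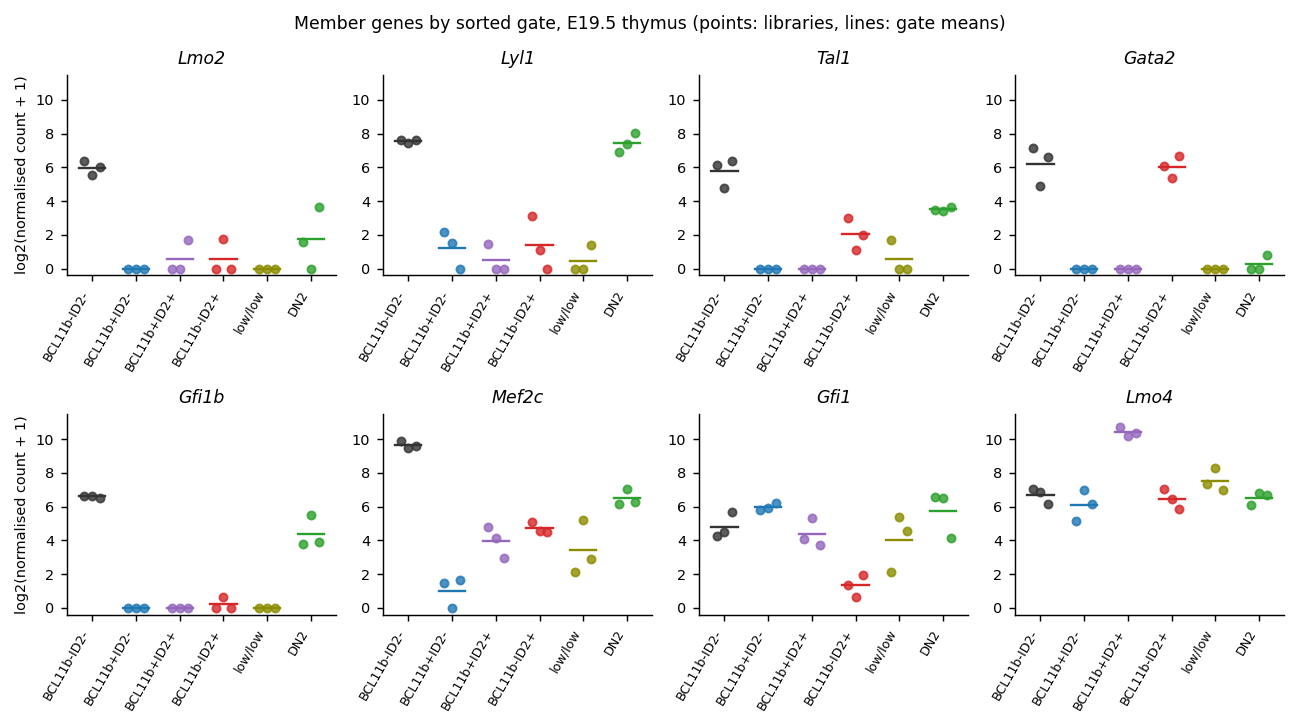
Normalised counts of the 8 measured genes at E19.5 on a log2(value + 1) axis, with 1 point per library and a line at each gate's mean of these logs. Lmo2, Tal1, Gfi1b and Mef2c are highest in the BCL11b-ID2- gate, Lyl1 there and in DN2, Gata2 in both BCL11b-negative DN1 gates, and Lmo4 in BCL11b+ID2+.

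The upstream sequences of 4 members are shown because Lyl1, Tal1 and Gfi1b varied together over the E19.5 libraries and Lmo4 apart from them. Over these 18 libraries the Pearson correlation of log2(value + 1) was 0.93 for Lyl1 and Gfi1b, 0.91 for Tal1 and Gfi1b, and 0.87 for Lyl1 and Tal1, and between -0.39 and -0.09 for Lmo4 with Lmo2, Lyl1, Tal1, Gfi1b, Gata2 and Mef2c, as a description over libraries that share their gates. Each is the 250 bases before the start of a RefSeq transcript (GRCm38.p6), 5′ to 3′ on the gene's strand, at chr8:84701207-84701456 (+), chr4:115056176-115056425 (+), chr2:28621983-28622232 (-) and chr3:144205256-144205505 (-). Windows were found for 7 of the 8 measured genes. Capitals mark a match on either strand to AGATAA (the letters that GATA factors bind, in 9.99% of 32851 such windows), CAGNTG (an E-box of the kind helix-loop-helix dimers bind, in 44.8%) or AAATCA (which holds the AATC core of GFI sites, in 12.4%). These motifs do not contain one another.
Lyl1: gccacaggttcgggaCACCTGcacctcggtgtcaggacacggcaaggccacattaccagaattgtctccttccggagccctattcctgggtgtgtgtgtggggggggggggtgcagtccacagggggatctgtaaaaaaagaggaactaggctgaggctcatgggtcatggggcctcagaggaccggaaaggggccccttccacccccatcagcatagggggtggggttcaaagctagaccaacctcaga
Tal1: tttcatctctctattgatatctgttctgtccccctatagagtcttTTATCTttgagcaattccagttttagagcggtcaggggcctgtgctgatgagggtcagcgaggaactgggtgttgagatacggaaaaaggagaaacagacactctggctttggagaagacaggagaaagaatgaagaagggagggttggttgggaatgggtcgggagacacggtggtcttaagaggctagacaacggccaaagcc
Gfi1b: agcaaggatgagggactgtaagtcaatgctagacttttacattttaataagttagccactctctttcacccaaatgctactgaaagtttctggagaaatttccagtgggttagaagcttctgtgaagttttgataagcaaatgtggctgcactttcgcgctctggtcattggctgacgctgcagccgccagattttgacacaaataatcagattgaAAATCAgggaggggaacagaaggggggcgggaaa
Lmo4: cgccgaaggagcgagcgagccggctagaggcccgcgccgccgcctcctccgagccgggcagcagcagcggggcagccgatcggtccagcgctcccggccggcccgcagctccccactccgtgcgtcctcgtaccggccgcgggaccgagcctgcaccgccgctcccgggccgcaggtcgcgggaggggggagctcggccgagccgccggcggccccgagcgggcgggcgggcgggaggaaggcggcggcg
Lyl1 held 1 E-box, Tal1 held 1 AGATAA match, Gfi1b held 1 GFI-type match and Lmo4 held none of the motifs. None of the searched motifs was found in more than 1 of the windows shown, and a match is a description of letters only. The Gfi1b window also holds TGATAA, another form of the GATA site, and an AATC outside its marked match. Mef2c, whose window is not shown, correlated at 0.87 with Tal1 and at 0.87 with Gfi1b at E19.5. Its window at the gene start also held 1 GFI-type match.

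Lmo2 (chromosome 2, 103957986 to 103981878, plus strand, GRCm38) had 46.3, 81.0 and 63.4 normalised counts in the 3 BCL11b-ID2- libraries at E19.5. The DN2 libraries had 0, 2.0 and 11.6, and all other gates had 0 except 1 BCL11b+ID2+ library at 2.21 and 1 BCL11b-ID2+ library at 2.39. The BCL11b-ID2- libraries thus stood above every other library of the stage. The mean there was 14 times the DN2 mean and at least 55.0 times that of BCL11b+ID2-, whose libraries held no read, with a floor of 3 reads over a gate. On the log2(value + 1) scale the difference in Lmo2 was -5.39 ± 0.973 (SE) for BCL11b-ID2+ against BCL11b-ID2- (adjusted p = 0.000355) and -5.98 ± 0.973 for BCL11b+ID2- against BCL11b-ID2- (adjusted p = 0.000126). The difference of DN2 from BCL11b-ID2- was -4.23 (adjusted p = 0.0144). That last call was lost with edgeR and with DESeq2 on the recovered reads, and when library 2 or 4 of BCL11b-ID2- or library 1 or 2 of DN2 was left out, with adjusted p up to 0.289.

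Lmo4 (chromosome 3, 144188530 to 144205220, minus strand), the LDB1-binding relative of Lmo2, had 1690, 1296 and 1169 normalised counts in BCL11b+ID2+ at E19.5. The BCL11blowID2low libraries had 319, 162 and 123, and the other 4 gates ran from 34.7 to 131. The BCL11b+ID2+ mean was 17.8 times that of BCL11b+ID2-, 15 times that of BCL11b-ID2+, 14.9 times that of DN2 and 6.87 times that of the low gate, and none of these groups overlapped. The log2 difference of BCL11b+ID2+ was 4.3 ± 0.441 from BCL11b+ID2- (adjusted p = 6.60e-07) and 3.96 ± 0.441 from BCL11b-ID2+ (adjusted p = 2.41e-06). BCL11b-ID2+, also sorted for ID2, did not differ from BCL11b-ID2- in the test (-0.21 ± 0.441, adjusted p = 0.825). In the order of mean levels the low gate came second, and from there down each gate overlapped the next. An intronic transcript on the same strand within Lmo4, Gm43445, was also highest in BCL11b+ID2+, at 50.8 to 105, against at most 38.7 elsewhere at E19.5. At E15.5 it ran from 1.64 to 1554 in BCL11b+ID2+ and from 3.52 to 747 in BCL11b-ID2+, with at most 3.68 in the other gates. Reads of Lmo4 and Gm43445 may be shared.

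Lmo2 and Lmo4 were high in different gates. Per kilobase of exon, BCL11b-ID2- held similar mean levels of both at E19.5, 29.4 for Lmo2 and 29.6 for Lmo4, while BCL11b+ID2+ held 0.340 and 392. The log2 ratio of Lmo2 to Lmo4 within a library, with 1 added to each value, averaged -0.69 ± 0.583 (SD, n = 3) in BCL11b-ID2-, -4.78 ± 1.90 (n = 3) in DN2, -5.88 ± 1.17 (n = 3) in BCL11b-ID2+, -6.12 ± 0.924 (n = 3) in BCL11b+ID2-, -7.54 ± 0.701 (n = 3) in BCL11blowID2low and -9.86 ± 1.07 (n = 3) in BCL11b+ID2+. Over the 4 crossed gates the ratio differed by -4.46 between ID2+ and ID2- libraries within BCL11b states, and by -4.70 between BCL11b+ and BCL11b- libraries within ID2 states. In a two-sided exact permutation test over 400 arrangements each difference gave p = 0.005, the smallest that design allows, and 0.005 after adjustment over the 4 such tests of both stages. The values behind this ratio came from different genes in different gates: the gap between BCL11b-ID2- and the other ID2- gate was in Lmo2, with Lmo4 means of 104 and 77.9, and the gap between the BCL11b+ gates was in Lmo4, with Lmo2 at or near 0 in both.

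**Figure D2:**
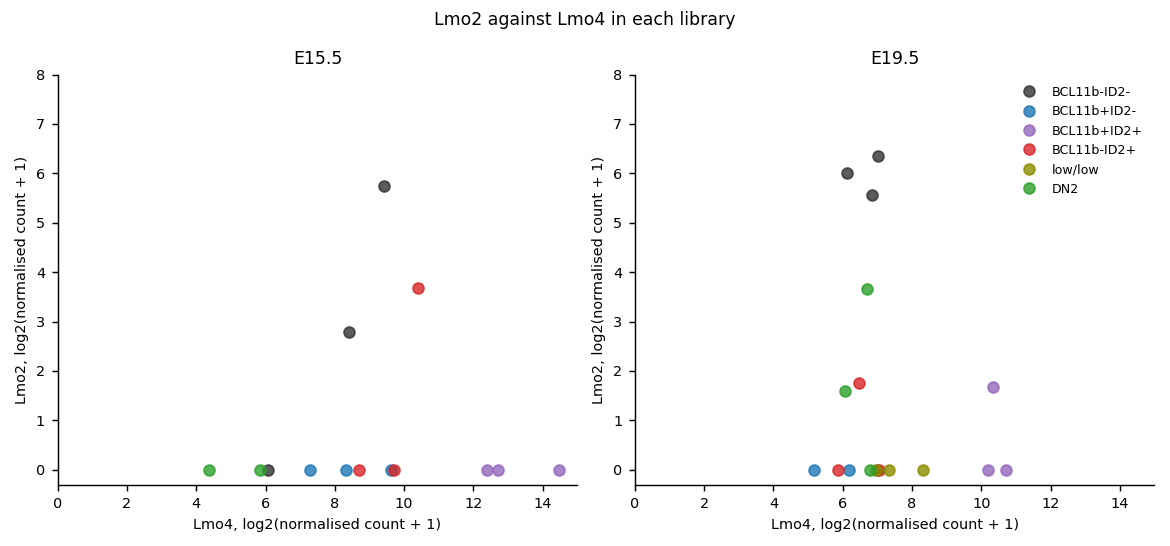
Lmo2 against Lmo4 in each library, both as log2(normalised count + 1), with E15.5 on the left and E19.5 on the right and gates by colour. The E19.5 BCL11b-ID2- libraries stand apart at the top with Lmo2 at 46.3 to 81.0, and the BCL11b+ID2+ libraries stand apart on the right at both stages.

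At E15.5 Lmo4 had 6677, 5380 and 22852 normalised counts in BCL11b+ID2+. BCL11b-ID2+ had 413, 1361 and 843, BCL11b+ID2- had 783, 321 and 153, BCL11b-ID2- had 681, 338 and 66.8, and DN2 had 56.0 and 19.6. BCL11b+ID2+ lay above all other libraries and DN2 below all others. The log2 difference between BCL11b+ID2+ and BCL11b+ID2- was 4.79 ± 1.09 (adjusted p = 0.0341), a 27.8-fold ratio of means, in a comparison that called 0.719% of 10289 genes. Leaving out any 1 library of either group, or library 3 of BCL11b-ID2+, ended this call, with differences of 4.14 to 5.39 and adjusted p up to 0.149, and without both libraries that ran against their gates it was 5.03 (adjusted p = 0.0915). Against BCL11b-ID2+ the difference was 3.58 ± 1.09, with a 13.3-fold ratio of means and no overlap. It missed the threshold in limma (adjusted p = 0.225) and passed it in DESeq2 (adjusted p = 0.00488), which called 643 of 8632 genes there.

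Lmo2 at E15.5 was read in 3 of 14 libraries, at 52.6 and 5.94 in BCL11b-ID2- and 11.7 in BCL11b-ID2+, and was removed by the filter on low values. The E15.5 log2 ratio of Lmo2 to Lmo4 differed by -4.03 for ID2+ and by -4.05 for BCL11b+ libraries, each with p = 0.005 in the same exact test (adjusted p = 0.005). Lmo2 was at 0 in 11 libraries. Among ID2- cells the ratio differed by -3.28 between BCL11b states, beside a Lmo4 difference of 0.438. That part came mostly from Lmo2, read in 2 libraries of BCL11b-ID2-. Among BCL11b+ cells the ratio differed by -4.79 between ID2 states, beside a Lmo4 difference of 4.79. In the other strata both genes entered, with -4.81 beside 3.58 among ID2+ and -3.265 beside 1.64 among BCL11b-.

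Lyl1 (chromosome 8, 84701457 to 84704715, plus strand), a helix-loop-helix factor close to TAL1, had 172, 199 and 193 normalised counts in BCL11b-ID2- at E19.5 and 164, 122 and 258 in DN2. The 4 remaining gates had 0 to 7.68. The 2 high gates overlapped each other and lay far above the rest. Lyl1 was 106-fold higher in BCL11b-ID2- than in BCL11b+ID2- by ratio of means (log2 difference -6.34 ± 0.909 for BCL11b+ID2- against it, adjusted p = 2.92e-05) and 102-fold higher in DN2 than in BCL11b+ID2- (6.22 ± 0.909, adjusted p = 3.78e-05). DN2 and BCL11b-ID2- differed by -0.12 ± 0.909 (adjusted p = 0.996), so a difference of 1 log2 unit either way lies within 2 standard errors. Per kilobase of exon Lyl1 was the highest of the 8 genes in BCL11b-ID2-, at 104, and in DN2, at 101. Lyl1 lies within Nfix on the opposite strand, and Nfix was itself at 138 to 157 in BCL11b-ID2- and 106 to 191 in DN2 against 0 to 63.8 elsewhere. No source used here gives the strand setting of the counting, so reads of the pair cannot be told apart where they overlap.

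Tal1 (chromosome 4, 115056426 to 115071755, plus strand), the founding helix-loop-helix factor of the stem cell complex, had 26.8, 70.2 and 83.6 normalised counts in BCL11b-ID2- at E19.5. DN2 had 9.89, 9.99 and 11.6, BCL11b-ID2+ had 1.2, 6.91 and 2.95, BCL11blowID2low had 0, 2.24 and 0, and the 6 libraries of both BCL11b+ gates had no read. The BCL11b-ID2-, DN2 and BCL11b-ID2+ groups followed in that order without overlap. Tal1 was lower in BCL11b-ID2+ than in BCL11b-ID2- (-3.75 ± 0.863, adjusted p = 0.00348), and higher in DN2 than in BCL11b+ID2- (3.52 ± 0.863, adjusted p = 0.00628), at least 9.08-fold. The BCL11b-ID2- mean was 5.73 times the DN2 mean, a difference that missed the threshold (-2.26 ± 0.863, adjusted p = 0.227). With a pseudocount of 8 it was called in limma (-1.77, adjusted p = 0.0114).

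Gfi1b (chromosome 2, 28609450 to 28621982, minus strand), a repressor of erythroid and megakaryocyte precursors, had 98.8, 99.8 and 91.2 normalised counts in BCL11b-ID2- and 45.2, 12.7 and 13.8 in DN2 at E19.5. A single read in 1 BCL11b-ID2+ library was all that the 4 other gates held. Gfi1b was lower in BCL11b+ID2- than in BCL11b-ID2- (-6.61 ± 0.817, adjusted p = 4.05e-06) and higher in DN2 than in BCL11b+ID2- (4.4 ± 0.817, adjusted p = 0.000568). Between DN2 and BCL11b-ID2- it gave -2.21 ± 0.817 (adjusted p = 0.202), although the groups did not overlap. With a pseudocount of 8 this difference was called in limma (-1.86, adjusted p = 0.00719).

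Mef2c (chromosome 13, 83504034 to 83667080, plus strand) was the gene with the most reads in BCL11b-ID2- among the 8, at 710, 964 and 763 normalised counts at E19.5. DN2 had 131, 69.3 and 76.3, BCL11b-ID2+ had 22.8, 33.8 and 21.8, and BCL11b+ID2+ had 26.7, 6.63 and 16.5. BCL11blowID2low had 36.5, 3.35 and 6.46, and BCL11b+ID2- had 1.74, 2.14 and 0. The first 3 of these gates followed in order without overlap. The log2 difference of BCL11b+ID2- from BCL11b-ID2- was -8.62 ± 0.736 (adjusted p = 1.70e-08), the widest of any member in any comparison of the stage. Mef2c was also lower in BCL11b-ID2+ than in BCL11b-ID2- (-4.92 ± 0.736, adjusted p = 3.82e-05) and in DN2 than in BCL11b-ID2- (-3.17 ± 0.736, adjusted p = 0.0153). The DN2 call was lost in 5 of 26 alternatives, each of them the loss of 1 library (any BCL11b-ID2- library, or library 2 or 4 of DN2), with adjusted p up to 0.0889. Its low level within the BCL11b+ gates was higher with ID2 (2.92 ± 0.736, adjusted p = 0.0121), a call lost without library 1 of BCL11b+ID2+ or library 4 of BCL11b+ID2-, when only the compared groups were fitted, and with a pseudocount of 8 (adjusted p up to 0.133).

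Gata2 (chromosome 6, 88193891 to 88207032, plus strand), the GATA factor of blood stem cells and of mast cells, had 29.3, 141 and 95.1 normalised counts in BCL11b-ID2- and 40.7, 67.6 and 99.8 in BCL11b-ID2+ at E19.5. The other 12 libraries had no read but for 1 in a DN2 library. The 2 BCL11b-negative gates overlapped and differed by -0.17 ± 0.839 (adjusted p = 0.933). Gata2 was lower in BCL11b+ID2- than in BCL11b-ID2- (-6.22 ± 0.839, adjusted p = 1.31e-05) and lower in BCL11b+ID2+ than in BCL11b-ID2+ (-6.05 ± 0.839, adjusted p = 3.88e-05), at least 76.5-fold and 69.0-fold by means. It was the member that set DN2 apart from BCL11b-ID2- most firmly (-5.96 ± 0.839, adjusted p = 0.000114). Markers of mast cells and basophils moved with Gata2 in part: their summed level was 1640 to 1729 in BCL11b-ID2+, with all 10 markers read and the mast cell protease Mcpt4 at 378 to 544, and 501 to 739 in BCL11b-ID2-, with 9 of 10 read and Mcpt4 at 0. DN2 had 725 to 933 and BCL11b+ID2- 622 to 1008, with 5 of 10 at 0 in each and nearly all of the sum in Cpa3, whose means were 817 and 809, and the sums were 37.6 to 142 in BCL11b+ID2+ and 30.2 to 116 in BCL11blowID2low. Their part in the Gata2 values was not tested.

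Gfi1 (chromosome 5, 107716657 to 107726036, minus strand), the paralogue of Gfi1b that early T cells need, ran differently from the rest. At E19.5 it had 53.8, 75.0 and 60.9 normalised counts in BCL11b+ID2-, 91.9, 92.6 and 16.7 in DN2, and 22.0, 18.1 and 50.9 in BCL11b-ID2-. BCL11b+ID2+ had 16, 12.2 and 39.6, and BCL11blowID2low had 41.5, 3.35 and 22.6. BCL11b-ID2+ had 0.599, 1.54 and 2.95, below every other library. Gfi1 was lower there than in BCL11b-ID2- (-3.49 ± 0.850, adjusted p = 0.00553) and than in BCL11b+ID2+ (3.05 ± 0.850 for BCL11b+ID2+ against it, adjusted p = 0.0312). The second call was lost in 6 of 26 alternatives, namely without library 1 or 4 of BCL11b+ID2+ or library 1 or 2 of BCL11b-ID2+, with a pseudocount of 8, and when only the compared groups were fitted (adjusted p up to 0.17). Between BCL11b+ID2- and BCL11b-ID2- the Gfi1 difference was 1.17 ± 0.850 (adjusted p = 0.407), with the first gate higher and no overlap, while Gfi1b was read in 314 reads over the second gate and in none over the first.

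Set side by side by comparison at E19.5, ID2+ against ID2- cells among BCL11b- called 6 of the 8 genes lower (Lmo2, Lyl1, Tal1, Mef2c, Gfi1 and Gfi1b) and 0 higher, in a comparison that called 15.9% of all genes. BCL11b+ against BCL11b- cells among ID2- called 6 lower (the same genes with Gata2 in place of Gfi1), with 14.9% called over all genes. The median log2 difference of the 8 genes was -4.34 and -6.10 in these comparisons, against -0.01 and -0.05 over all genes. Both share the BCL11b-ID2- libraries. Among BCL11b+ cells, ID2+ against ID2- called Lmo4 and Mef2c higher (8.73% of all genes called), and among ID2+ cells, BCL11b+ against BCL11b- called Lmo4 and Gfi1 higher and Gata2 lower (6.03% called). DN2 was higher than BCL11b+ID2- for Lyl1, Tal1, Mef2c and Gfi1b (16.2% called) and lower than BCL11b-ID2- for Lmo2, Gata2 and Mef2c (2.98% called).

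**Figure D3:**
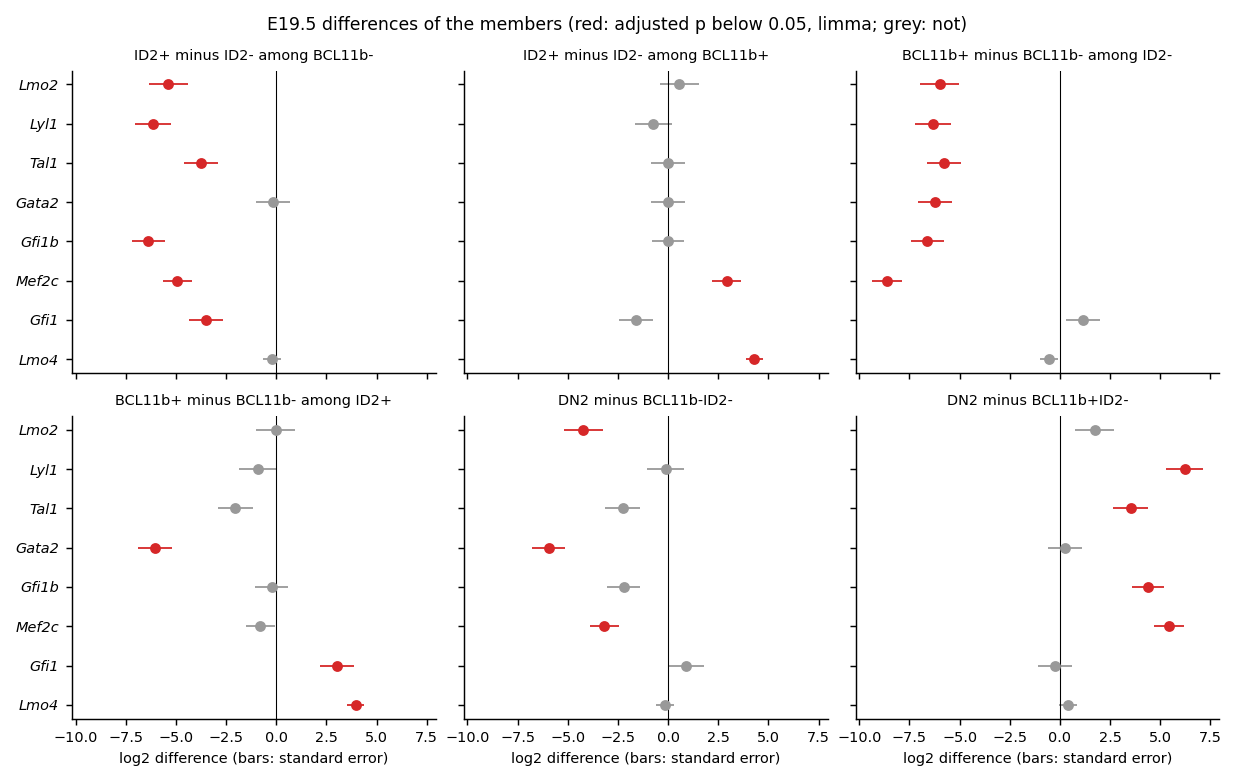
Log2 differences of the 8 genes at E19.5 in 6 comparisons, as points with standard errors, in red where limma's adjusted p is below 0.05. The BCL11b-ID2- gate is called higher for 6 genes in the upper left and upper right panels, and DN2 is called above BCL11b+ID2- for 4 genes in the last.

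The ID2 difference was compared between BCL11b states at E19.5. The interaction in limma, the ID2 difference among BCL11b+ cells minus that among BCL11b- cells, was called for Lmo2, Lmo4, Lyl1, Mef2c and Gfi1b, where 9.28% of all genes were called, and for Tal1 it was 3.75 ± 1.22 (adjusted p = 0.0554). Tal1 passed with a pseudocount of 8 (adjusted p = 0.00529), with library weights (adjusted p = 0.0252) and without library 2 of BCL11blowID2low (adjusted p = 0.0488). Within the BCL11b states, Lmo4 had a called rise with ID2 among BCL11b+ cells, and Lmo2, Lyl1 and Gfi1b a called fall with ID2 among BCL11b- cells. For Lmo2, Lyl1 and Gfi1b both BCL11b+ gates were at or near 0, where no fall could be seen, so their interaction mostly restates the fall among BCL11b- cells. Mef2c had both, the fall among BCL11b- and the rise among BCL11b+ cells. With edgeR the interaction was lost for Lmo2 (adjusted p = 0.0814), Lyl1 (adjusted p = 0.448) and Gfi1b (adjusted p = 0.9998), and with DESeq2 for Lyl1 (adjusted p = 0.109).

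The BCL11blowID2low gate, sorted at E19.5 only, was set against each of the crossed gates. It was lower than BCL11b-ID2- for 6 genes, Lmo2, Lyl1, Tal1, Gata2, Mef2c and Gfi1b, where 14% of all genes were called, with Lmo2, Gata2 and Gfi1b unread in its 3 libraries. It was lower than BCL11b+ID2+ for Lmo4 (-2.88 ± 0.441, adjusted p = 0.000277, with 4.43% called) and lower than BCL11b-ID2+ for Gata2 (-6.05 ± 0.839, adjusted p = 3.00e-05, with 8.57% called), where Gfi1 was at the edge of the threshold (2.70 ± 0.850, adjusted p = 0.0501) and was called by edgeR (adjusted p = 0.0229) and DESeq2 (adjusted p = 0.00245), and by limma without library 2 of BCL11blowID2low (adjusted p = 0.00772) or library 4 of DN2 (adjusted p = 0.0358). Against BCL11b+ID2- no member was called, where 6.91% of all genes were. With an unadjusted p under 0.05 there were 3, of which Lmo4 (1.43 ± 0.441, adjusted p = 0.0520) and Mef2c (2.38 ± 0.736, adjusted p = 0.0522) were called by DESeq2 and Mef2c also by edgeR.

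Markers of other blood cells were also high in BCL11b-ID2-. In the 3 E19.5 libraries of this gate the summed level of granulocyte and macrophage markers was 2206 to 3589, with 10 of 10 read and myeloperoxidase (Mpo) at 1704 to 2567. In DN2 it was 196 to 312, with 5 of 10 at 0, among them Elane and Prtn3, and Mpo at 145 to 274. In BCL11b+ID2- it was 5.21 to 23.1, in BCL11b-ID2+ 46.1 to 102 and in BCL11blowID2low 70.4 to 221. In BCL11b+ID2+, the gate of high Lmo4, it was 253 to 716, with 4 of 10 at 0 (Elane, Prtn3, Ctsg and S100a9). The macrophage markers Csf1r (146 against 1.07), Cd68 (184 against 4.24), Adgre1 (70.9 against 1.74) and Lyz2 (20.2 against 0) were called higher there than in BCL11b+ID2-, beside the differences in Lmo4 and Mef2c. That comparison called 8.73% of all genes. Erythroid and megakaryocyte markers summed to 416 to 538 in BCL11b-ID2- (12 of 12 read), 135 to 334 in DN2 and 3.32 to 228 elsewhere, with the erythroid factor Gata1 at most 10.9 and Klf1 at most 18.2 in BCL11b-ID2-. B-lineage markers summed to 224 to 278 there and to at most 241 elsewhere. Thymic epithelial and stromal markers summed to 733 to 987 there, 378 to 458 in DN2 and at most 264 elsewhere. Dendritic cell markers summed to 325 to 494 in BCL11b-ID2- and 349 to 542 in BCL11b-ID2+. Endothelial markers summed to 263 to 418 in BCL11b-ID2- and 363 to 713 in BCL11b+ID2-. The part of such cells in the members' values was not tested.

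At E15.5 the same genes were read in fewer libraries. The filter kept Lmo4, Lyl1 and Mef2c, and in the F test over 5 gates only Lmo4 was called (adjusted p = 0.00315, with 1.52% of genes called), while Mef2c missed it (adjusted p = 0.131). Mef2c had 1317, 997 and 1053 normalised counts in BCL11b-ID2-, 0, 312 and 209 in BCL11b-ID2+, 2.05 and 34.3 in DN2, and at most 9.49 in both BCL11b+ gates. All 3 BCL11b-ID2- libraries lay above every other. The Mef2c difference between BCL11b+ID2- and BCL11b-ID2- was -8.21 ± 2.14 (adjusted p = 0.283), in a comparison in which limma called 0.00972% of genes, that is 1 gene. DESeq2 called this Mef2c difference (adjusted p = 1.26e-05), where it called 340 of 8632 genes.

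Lyl1 at E15.5 had 0, 53.5 and 170 normalised counts in BCL11b-ID2- and 0, 31.5 and 0 in BCL11b+ID2-, with at most 1.23 elsewhere. Tal1 had 4.26, 89.8 and 109 in BCL11b-ID2- and was unread in all libraries of 3 gates. Gfi1 had 4.97, 404 and 20.9 in BCL11b-ID2- and at most 4.37 elsewhere, and Gfi1b had 83.0 in 1 BCL11b-ID2- library and no read in the 13 others. Gata2 had 162 in library 2 of BCL11b-ID2-, 156 and 9.46 in libraries 1 and 3 of BCL11b-ID2+, and 8.40 in library 2 of BCL11b+ID2+. The 156 came from the BCL11b-ID2+ library that ran against its gate, with 509 normalised counts of Bcl11b. Within BCL11b-ID2-, Tal1 and Gfi1 were read in all 3 libraries, Lyl1 and Lmo2 in 2 each, and Gata2 and Gfi1b in 1 each. The levels were unevenly spread. Library 1 held most of the Lmo2 with little Tal1, library 2 held Gata2 and most of the Gfi1, and library 3 held Gfi1b and most of the Lyl1.

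**Figure D4:**
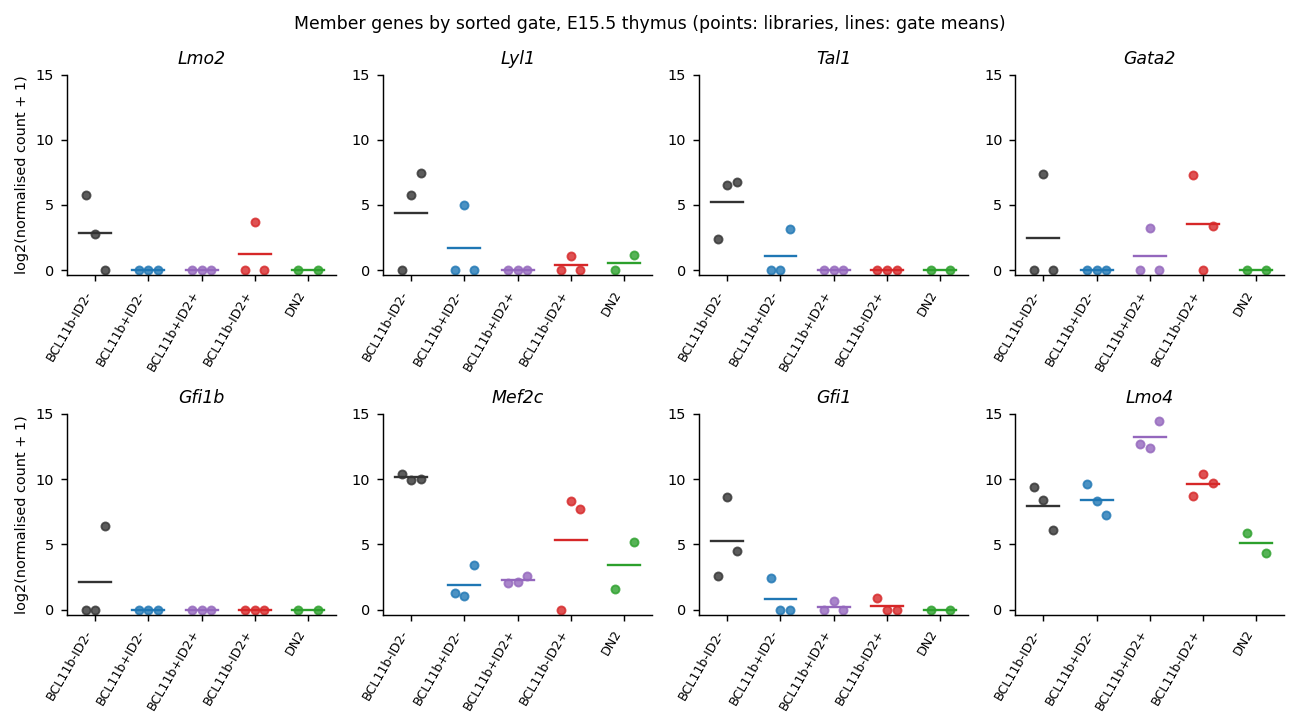
Normalised counts of the 8 measured genes at E15.5 on a log2(value + 1) axis, with 1 point per library and a line at each gate's mean of these logs. Lmo4 is highest in BCL11b+ID2+ and Mef2c in BCL11b-ID2-, and 6 of the genes are at 0 in most libraries.

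DN2 at E15.5 held almost none of the 6 low genes: over Lmo2, Lyl1, Tal1, Gata2, Gfi1 and Gfi1b a single read was found, in 1 of its 2 libraries. At E19.5, in a table of its own, the 3 DN2 libraries summed to 311, 239 and 312 normalised counts over the same genes, most of it Lyl1. The stages were normalised apart and no test was run between them. The E15.5 DN2 libraries had 9565 and 10057 genes with a read, below the 14387 to 18879 of the E19.5 libraries. An unread gene at E15.5 may therefore have been missed, and the part of this in the low values was not tested. No member, and no gene at all (0%), was called by limma or edgeR in DN2 against BCL11b+ID2-, in DN2 against BCL11b-ID2- or in the interaction at E15.5, with 663, 623 and 662 genes at an unadjusted p under 0.05, and DESeq2 called 532, 480 and 377 genes. Among these DESeq2 calls were Lmo4 in DN2 against BCL11b+ID2- (-3.47, adjusted p = 0.0324) and Mef2c in DN2 against BCL11b-ID2- (-5.96, adjusted p = 0.0097). Among BCL11b- cells, ID2+ against ID2- called none of the 3 tested members in limma (0.467% of genes called), and among ID2+ cells, BCL11b+ against BCL11b- called none in limma (0.0778% called), although Lyl1 and Mef2c in the first and Lmo4 in the second had an unadjusted p under 0.05. In the second DESeq2 called Mef2c (-5.55, adjusted p = 0.00792) and Lmo4 (3.74, adjusted p = 0.00488), where it called 643 of 8632 genes.

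The genes most like the members over the 18 E19.5 libraries, among 4690 with a mean of at least 100, were taken as a description. For Lmo2 they were Mpo (r = 0.85), Ywhag (0.85) and Cd34 (0.81), with r over the 14 E15.5 libraries of 0.49, 0.09 and 0.18. For Lyl1 they were Cd93 (0.94), Slc22a3 (0.93) and Sod1 (0.93), which gave 0.28, 0.28 and -0.31 at E15.5. For Lmo4 they were Arl5a (0.93), Stab2 (0.89) and Gclc (0.88), and these kept 0.80, 0.75 and 0.62 at E15.5. For Gfi1 they were Ralgps2 (0.91), Psip1 (0.86) and Stat5b (0.83), with 0.28, -0.23 and 0.09 at E15.5.

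Of 16 genes listed for the LMO2 complex and its co-factors, 13 passed the E19.5 filter. ID2+ against ID2- among BCL11b- called 2 higher and 3 lower, with a median of -0.45, beside 15.9% of all genes called and a median of -0.01. Gata3, the GATA factor of T and innate lymphoid cells, rose (1.70 ± 0.237), and the E proteins Tcf4 (-2.24 ± 0.370) and Tcf3 (-1.27 ± 0.370) and the LDB1-binding Ssbp2 (-1.92 ± 0.658) fell. BCL11b+ against BCL11b- among ID2- called 2 higher, Gata3 (3.27 ± 0.237) and the E protein Tcf12 (2.31 ± 0.219), and 1 lower, Tcf4 (-1.22 ± 0.370), beside 14.9% of all genes. Ldb1 itself averaged 179 to 396 normalised counts over the 6 gates. Cbfa2t3, the co-repressor ETO2 of the complex, averaged 35.9 in BCL11b+ID2+, the gate with high Lmo4, against 258 in BCL11b+ID2- (-2.83 ± 0.476, adjusted p = 0.000319) and 374 in BCL11b-ID2+ (-3.33 ± 0.476, adjusted p = 5.54e-05).

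Of 14 other regulators of blood progenitors, 13 passed the filter, and both ID2+ against ID2- among BCL11b- and BCL11b+ against BCL11b- among ID2- called 11 lower and 1 higher, with medians of -3.79 and -5.56, beside 15.9% and 14.9% of all genes called and medians of -0.01 and -0.05. Both comparisons share the BCL11b-ID2- libraries. In the second comparison the largest were Bcl11a (999 normalised counts in BCL11b-ID2- against 0.307, log2 difference -9.65), the ETS factor Erg (642 against 0, -9.32), the cytokine receptor Flt3 (209 against 0, -7.70) and the myeloid and lymphoid factor Spi1 (241 against 0.307, -7.58). In the first they were Erg (-7.47), Nfe2 (-7.22), Hoxa9 (-5.88) and Mycn (-5.58). DN2 was higher than BCL11b+ID2- for 8 of them and lower for 1 (16.2% of all genes called), led by Erg (8.39), Bcl11a (7.58), Nfe2 (6.34) and Spi1 (6.15), and lower than BCL11b-ID2- for 2, Flt3 (-5.73) and Hoxa9 (-5.23), where 2.98% of all genes were called.

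Of 7 co-repressors listed for GFI1 and GFI1B, 6 passed the filter, and 1 was called in ID2+ against ID2- among BCL11b-, the histone deacetylase Hdac2 (-1.19), a share near the 15.9% of all genes called there. None was called in BCL11b+ against BCL11b- among ID2-, or in either DN2 comparison. Of the other MEF2 genes and their class IIa deacetylase partners, 7 were listed and 6 passed. BCL11b+ against BCL11b- among ID2- called 3 higher, Hdac7 (2.49), Hdac4 (1.60) and Mef2a (1.53), and 0 lower, beside 14.9% of all genes. DN2 was lower than BCL11b+ID2- for Hdac5 (-4.68), Mef2a (-2.47), Hdac7 (-2.37) and Mef2d (-1.16), where 16.2% of all genes were called.

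T-lineage regulators were called in both directions in BCL11b+ against BCL11b- among ID2-, 5 higher and 3 lower of 12 (14.9% of all genes called), with Bcl11b (7.01), Lef1 (5.93), Ets1 (4.37) and Gata3 (3.27) the widest. DN2 was higher than BCL11b-ID2- for 6 of 12 and lower for 0 (2.98% of all genes called), led by Bcl11b (5.63) and the pre-T-cell receptor chain Ptcra (5.17). Of 8 innate lymphoid regulators, ID2+ against ID2- among BCL11b- called 6 higher and 0 lower (15.9% of all genes called), led by Tbx21 (7.22), Id2 (6.02), Eomes (5.28) and Nfil3 (4.33). Bcl11b and Id2 were part of the sort, and their differences follow from it.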

How the data were processed

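Per the labels' protocols, RNA from sorted cells was amplified with the Ovation RNA-seq System V2, sheared and barcoded. Trim Galore 0.50, STAR 2.6.0a, DESeq2 1.18.1 and the build GRCm38 are named in the submitters' processing notes. Each stage has 1 table, whose deposited values are a normalised signal (DESeq2-normalised read counts). Dividing by the value of 1 read gave whole reads for 100% of values within 0.01 reads, and the recovered read counts served for depth, floors and the alternatives by edgeR 4.0.16 and DESeq2 1.42.0. There were 0 columns of other samples.

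Testing was limited to genes that reached a value of 10 in 3 or more libraries of their stage (10289 at E15.5, 13840 at E19.5) and used log2(value + 1), which understates the differences of low genes. At E19.5 Lmo2 and Tal1 passed this filter only through BCL11b-ID2-, so their calls against that gate are not independent of the filter. All gates of a stage entered 1 limma 3.58.1 fit (R 4.3.3) with intensity trend and robust variances, and p-values were adjusted by Benjamini-Hochberg over all genes within a comparison and called below 0.05. An adjusted p comes from limma where no other tool or test is named. Errors written ± after a log2 difference are standard errors. Folds are ratios of means, and floors of 3 reads cover counting error only. The scripts were tested on simulated data.

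The members and lists were chosen with earlier results of these data known. Named genes are all members, Bcl11b and Id2, and from each list up to 4 genes with an adjusted p below threshold and no overlap between groups, by size. Cd3e and Il2ra among the staging genes, marker genes beside the results, Ldb1, and single list genes were named after their values were seen. Lengths and positions are from GENCODE M21 (GRCm38), upstream sequences from RefSeq (GRCm38.p6). Leaving out both E15.5 libraries that ran against their gates was chosen after seeing the data.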

Additional observations from a re-analysis of the deposited data

Results flagged for a closer look

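At E19.5 the ID2 difference among BCL11b+ cells differed from that among BCL11b- cells for 5 members in limma's interaction test, on the log2(value + 1) scale and with p-values adjusted over all genes. Mef2c gave 7.84 (adjusted p = 2.67e-05), Gfi1b 6.38 (adjusted p = 0.000848), Lmo2 5.95 (adjusted p = 0.00704), Lyl1 5.41 (adjusted p = 0.00872) and Lmo4 4.51 (adjusted p = 4.36e-05). With edgeR on the recovered reads the interaction was not called for Lmo2 (adjusted p = 0.0814), Gfi1b (adjusted p = 0.9998) or Lyl1 (adjusted p = 0.448), and DESeq2 did not call it for Lyl1. For Lmo2, Lyl1 and Gfi1b both BCL11b+ gates were at or near 0, so no fall with ID2 could be seen there. Their interaction mostly restates the fall among BCL11b- cells, which for Gfi1b was -6.38.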

How the results depend on the processing

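At E19.5 the 8 measured genes differed among all gates under each of the 25 alternatives run for that count, and the number of member calls over the 11 comparisons, 37 of 88, stayed between 35 and 40 under all 26. None of these calls changed direction. At E15.5 the count of members differing among all gates, 1 of 3, was 2 with a pseudocount of 8, with edgeR and with DESeq2, and 1 when any library was left out. The single E15.5 call over 7 comparisons, Lmo4, was 0 without the filter on low values, with library weights, when only the groups compared were fitted, and without library 1 of both ID2-positive gates, and leaving out 1 library gave 0 to 1. DESeq2 made it 6. The cause was not tested. The labels do not say what a replicate number marks. Correlations of the deviations of same-numbered libraries from their gate means ran from -0.0458 to 0.0388 at E15.5 and from 0.00202 to 0.129 at E19.5, so not every pair passed 0.1 and the numbers were not taken as pairs. At E19.5 17 of 18 libraries correlated best with their own number, with a mean of 0.0522 against -0.0261 for different numbers, a hint of pairing from the data and not from the design. With the replicate block, E19.5 member calls numbered 39, the 2 added being the Tal1 interaction (adjusted p = 0.0456) and Mef2c in BCL11blowID2low against BCL11b+ID2- (adjusted p = 0.037), and E15.5 calls 1, and the Lmo2 to Lmo4 ratio differences kept their values with an exact two-sided sign-flip p = 0.03125, the smallest that 6 pairs allow. Without 1 library the E19.5 ratio differences ran from -4.76 to -4.17 by ID2 and from -5.00 to -4.41 by BCL11b. With 1 read worth 0.560 to 1.78 normalised counts, genes with under 3 reads a gate cannot be ranked at this depth.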
